A study of Mus musculus with 4 samples.

Results

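The genes described here are 44 genes of the Wnt pathway, taken by their symbols from a list that holds ligands, the enzyme that acylates them, receptors, secreted inhibitors, intracellular parts and target genes. All 44 had a value in the files, in 45 of 19645 features, because *Notum* was listed under 2 features. RNA-seq had been performed on 2 libraries of wild-type (WT) mouse embryonic stem cells (ESCs) and 2 libraries of *Bmal1* KO ESCs, in which CRISPR-Cas9 was aimed at an exon of the gene for BMAL1, a transcription factor of the circadian clock that binds E-box sequences. Both genotypes were grown as undifferentiated ESCs on gelatin in serum with LIF, a cytokine that maintains self-renewal. The KO cells are a single line, so genotype, line and culture cannot be told apart.

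Wnt proteins are secreted ligands that need an acyl group, added by PORCN, to leave the cell and to bind Frizzled receptors with the co-receptors LRP5 and LRP6. In the canonical branch, binding relays through Dishevelled proteins and stops a complex of AXIN, APC and GSK3 from marking β-catenin for degradation, and β-catenin then activates genes together with TCF/LEF factors. Several of the target genes, such as *Axin2*, *Notum* and *Znrf3*, encode proteins that dampen the pathway. In mouse ESCs, Wnt signalling is known to favour self-renewal, and later in the embryo it patterns the primitive streak and the nervous system.

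*Sp5*, a transcription factor gene known as a direct target of β-catenin, showed the largest log2 fold change among the 29 of these genes that were tested. Its upstream sequence is printed here to show where CTTTGAA or CTTTGAT lie, letters bound by TCF/LEF factors. No other letters were searched for these factors. The gene is on the plus strand of chromosome 2, from 70474923 to 70477726 (GRCm38), and no other annotated gene overlaps it. The 250 bases before its start, at chr2:70474673-70474922 (RefSeq, GRCm38.p6), hold 1 match to CTTTGAA or CTTTGAT, given in capitals:

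*Sp5* upstream sequence: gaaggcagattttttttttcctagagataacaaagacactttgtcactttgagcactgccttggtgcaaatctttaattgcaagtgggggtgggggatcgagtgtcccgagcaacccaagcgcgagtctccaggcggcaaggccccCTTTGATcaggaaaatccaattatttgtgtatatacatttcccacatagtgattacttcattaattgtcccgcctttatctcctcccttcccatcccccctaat

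The match begins 104 bases before the start. Searched on both strands of windows from 250 bases before to 50 bases after each start, these letters occurred in 8.65% of 32851 windows over the genome and in 4 of 37 windows of these Wnt genes, those of *Sp5*, *Wnt5b*, *Wnt11* and *Dkk1*. The E-box CACGTG was found in 7.15% of all windows and also in 4 of the 37, those of *Dvl2*, *Fzd9*, *Lef1* and *Wnt9a*, the last of which is not printed. Wnt pathway genes outside the list held the E-box in 4 of 61 windows (6.56%) and the TCF/LEF letters in 3 of 61 (4.92%). *Dvl2*, for a Dishevelled protein, had 3 E-boxes, which 29 of the 32851 windows (0.0883%) matched or exceeded. Its upstream stretch is shown with stretches of the receptor gene *Fzd9* and of *Lef1* because BMAL1 binds this motif. The *Fzd9* stretch lies before a RefSeq start but inside the gene as annotated, which spans 135248938 to 135251230. The E-box is in capitals and each sequence is read 5′ to 3′ on the strand of the gene:

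*Dvl2*, chr11:70000432-70000591, plus strand: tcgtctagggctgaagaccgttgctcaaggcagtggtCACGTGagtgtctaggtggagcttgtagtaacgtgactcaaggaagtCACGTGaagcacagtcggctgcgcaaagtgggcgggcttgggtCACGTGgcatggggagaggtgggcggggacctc
*Fzd9*, chr5:135251100-135251165, minus strand: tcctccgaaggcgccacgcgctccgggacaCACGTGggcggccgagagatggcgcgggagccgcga
*Lef1*, chr3:131156185-131156250, plus strand, at a start inside the gene: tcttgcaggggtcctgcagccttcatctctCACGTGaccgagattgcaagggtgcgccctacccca

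A match of letters is a description of the window, not a measured binding site, and no binding was measured in these libraries.

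The targeted gene, listed as *Arntl*, measured 6.05 and 6.29 FPKM in WT ESCs and 5.95 and 5.92 FPKM in KO ESCs, where FPKM are fragments scaled by the length of the transcript and the size of the library. Its log2 fold change was -0.06 ± 0.10 (SE; adjusted p = 0.750), so the gene-level values do not check the genotype. The study reports a short deletion in its KO line by Sanger sequencing and loss of the BMAL1 protein by Western blot. The libraries are assigned to that line by their labels. The 8 markers of pluripotent ESCs summed to between 5886 and 6431 FPKM in the 4 libraries, and 2 of them, *Klf4* and *Tdgf1*, were lower in KO ESCs (25%, beside 5.6% of all features). The highest markers, *Dppa5a* (mean 2963 FPKM) and *Pou5f1* (mean 1514 FPKM), overlapped between the genotypes. The log2 fold change was negative in 7 of the 8. Both KO libraries were below both WT libraries in 5 (62.5%, beside 31.7% of all features). Genes without a symbol held 26.8% and 37.3% of the summed FPKM in the WT libraries against 19.0% and 18.1% in the KO libraries, and the part of this in the differences given here was not tested. A change is given as the log2 fold change of FPKM + 0.1, KO minus WT, and was tested with limma with Benjamini-Hochberg adjustment over 12990 features of a mean of at least 0.5 FPKM. The study describes its replicates as biological, and neither it nor the labels say whether they were separate cultures. The p-values and SE therefore rest on the spread between these libraries. In limma the variance of each feature is also drawn toward that of features of like expression, so nearly equal replicates do not by themselves give a small SE.

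In *Bmal1* KO ESCs, *Sp5*, *Wnt7b*, *Fzd2* and *Sfrp1* were up-regulated and *Notum* and *Porcn* were down-regulated, and the other 23 Wnt genes tested did not pass. Of the 44 genes, 29 passed the minimum of expression and the other 15 lay between 0 and 0.736 FPKM in every library. Of the 29, 4 were higher in KO ESCs at an adjusted p under 0.05 (13.8%, beside 6.85% of all tested features), 2 were lower (6.90%, beside 5.6%) and 23 did not pass. With the added requirement of more than a 2-fold change, 3 were higher (10.3%, beside 2.72%) and 0 were lower (beside 1.42%), since no tested gene fell by more than 0.91 on the log2 scale. *Wnt7b*, counted among the genes higher under both rules, reached the minimum only through its KO values, and at a minimum of 1 FPKM these counts were 3 and 2. The KO values were above every WT value in 10 genes (34.5%, beside 27% of all features), below them in 9 (31.0%, beside 31.7%), and the genotypes overlapped in 10. Those with KO above WT include *Wnt7b* and *Wnt6*, which reached the minimum only through their KO values. The minimum thus favoured their place in that count. The median log2 fold change over the 29 was 0.01, beside -0.02 over all features. The shares of genes lower in KO ESCs were thus near those of all features, and 4 genes higher out of 29 is a small count.

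**Figure D1:**
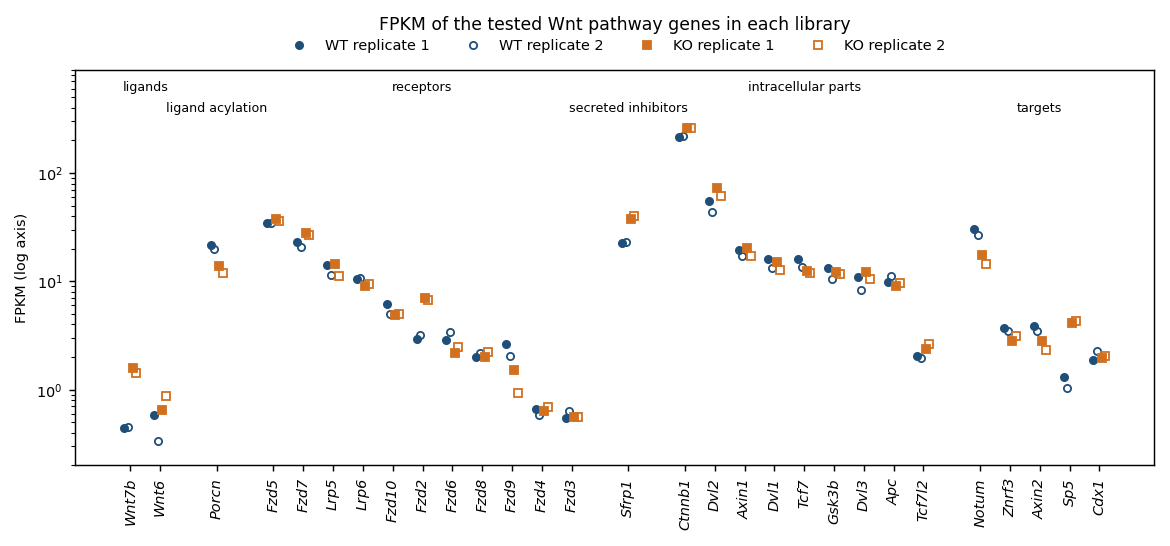
Expression of the 29 Wnt pathway genes that passed the minimum, grouped by role, with 1 point for each library (circles for WT, squares for KO, filled for replicate 1) on a logarithmic axis of FPKM. *Ctnnb1* was the highest gene at 217 to 258 FPKM, and the groups of points are clearly apart for *Wnt7b*, *Porcn*, *Fzd2*, *Sfrp1*, *Notum* and *Sp5*.

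Ligands were scarcely expressed in either genotype. The 12 Wnt genes of the list summed to 1.91 and 1.75 FPKM in WT ESCs and to 3.63 and 3.63 FPKM in KO ESCs, and *Wnt7b* made up the largest part of the KO sums. *Wnt7b*, for a ligand known from the developing nervous system, lung and kidney, measured 0.439 and 0.456 FPKM in WT ESCs and 1.599 and 1.44 FPKM in KO ESCs. Both KO libraries were well above both WT libraries, with a log2 fold change of 1.56 ± 0.23 (adjusted p = 0.0131), which was 0.80 with a pseudocount of 1. Its WT mean was under the minimum, so it entered the test only through its KO values, as did *Wnt6* (log2 fold change 0.64 ± 0.34, adjusted p = 0.273). The feature spans 85535437 to 85593708 on the minus strand of chromosome 15 and overlaps an annotated antisense gene, AU022754. The files do not state the strand of the libraries, and reads from this gene and from *Wnt7b* cannot be told apart.

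The other 10 ligand genes, *Wnt3*, *Wnt3a*, *Wnt4*, *Wnt5a*, *Wnt5b*, *Wnt7a*, *Wnt8a*, *Wnt9a*, *Wnt10a* and *Wnt11*, lay between 0 and 0.311 FPKM and were not tested. *Wnt7a*, the closest relative of *Wnt7b*, was listed at 0 in each library of WT ESCs and at 0.0478 and 0.0576 FPKM in KO ESCs. *Wnt3*, the ligand required to form the primitive streak, was at or under 0.0425 FPKM in every library. At such levels a ratio has no meaning, and the depth of the libraries, which FPKM does not give, sets no limit that can be stated.

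Neural markers moved with *Wnt7b* and *Sp5*. The 4 neural markers that were tested summed to 2.94 and 3.43 FPKM in WT ESCs and to 12.5 and 14.0 FPKM in KO ESCs, and 3 of them were higher in KO ESCs (*Sox1*, *Pax6* and *Neurod1*). *Neurod1* entered the test only through its KO values, since its WT mean was 0.470 FPKM. *Sox1*, a transcription factor gene of the early neural plate, measured 1.32 and 1.38 FPKM in WT ESCs and 6.91 and 7.61 FPKM in KO ESCs. In bulk RNA, more cells of a type and more RNA per cell cannot be told apart, and the part of neural cells in the values of *Wnt7b* and *Sp5* was not tested. The 6 primitive streak markers summed to 2.77 and 2.76 FPKM in WT ESCs and to 1.37 and 1.92 FPKM in KO ESCs. *Eomes* was the only one of them tested, and it was lower in KO ESCs, whereas *T* was between 0 and 0.174 FPKM. Of 2 tested fibroblast markers, *Fn1* was higher in KO ESCs (50%, beside 6.85% of all features). The other, *Thy1*, measured 1.69 and 1.54 FPKM in WT ESCs and 2.73 and 2.11 FPKM in KO ESCs. Its log2 fold change of 0.55 did not pass (adjusted p = 0.120). *Col1a1*, *Col1a2*, *Col3a1* and *Dcn* did not exceed 0.217 FPKM. Of the other markers, *Tfap2c* was higher and *Eomes* lower among 4 tested trophoblast markers, which summed with those not tested to 36.8 and 32.8 FPKM in WT ESCs and to 31.5 and 32.1 FPKM in KO ESCs. The 7 primitive endoderm markers summed to 1.17 and 1.26 FPKM in WT ESCs and to 1.96 and 1.84 FPKM in KO ESCs. Only *Gata4* of these was tested and it did not pass (adjusted p = 0.653), while *Sox7* measured 0.260 and 0.247 FPKM in WT ESCs and 0.709 and 0.627 FPKM in KO ESCs. The part of such cells in the values of the Wnt genes was not tested.

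*Porcn*, for the enzyme that acylates all Wnt ligands, was down-regulated. Its feature on the minus strand of chromosome X, from 8193809 to 8206811, measured 21.6 and 19.9 FPKM in WT ESCs and 13.7 and 12.03 FPKM in KO ESCs. The genotypes did not overlap, and the log2 fold change was -0.69 ± 0.10 (adjusted p = 0.0143). *Porcn* overlaps no other annotated gene, and the 20 tested features nearest to it had a median log2 fold change of -0.08.

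**Figure D2:**
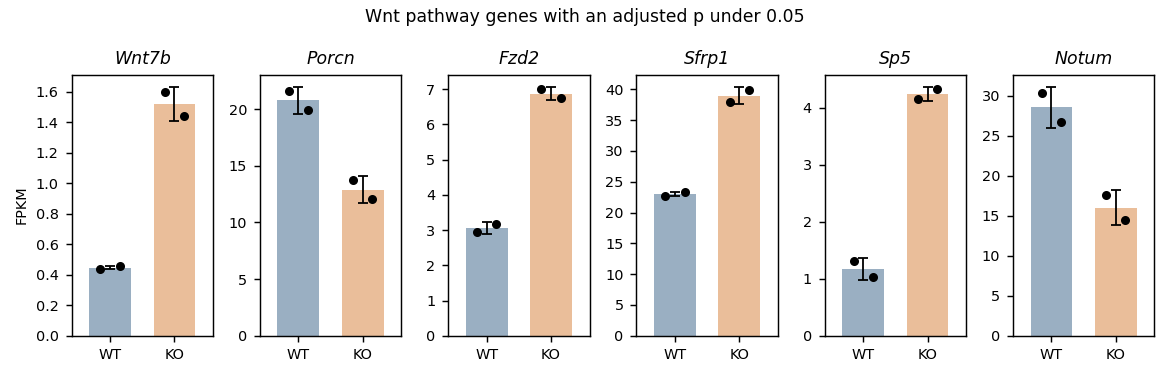
FPKM of the 6 Wnt pathway genes with an adjusted p under 0.05, where bars show the mean of 2 libraries, error bars the SD and points the libraries, each panel with its own axis from 0. *Wnt7b*, *Fzd2*, *Sfrp1* and *Sp5* were higher in both KO libraries than in both WT libraries, and *Porcn* and *Notum* were lower.

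Among the receptors, *Fzd2* was the only gene to pass the test. FZD2 is a Frizzled receptor known to take both canonical and non-canonical Wnt ligands. *Fzd2*, on the plus strand of chromosome 11 from 102604431 to 102608058, measured 2.94 and 3.17 FPKM in WT ESCs and 7.003 and 6.74 FPKM in KO ESCs. The KO libraries were close to each other and far above the WT libraries, a log2 fold change of 1.14 ± 0.11 (adjusted p = 0.00557). Its 20 nearest tested features had a median of 0.01, and no other annotated gene overlaps it.

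*Fzd5*, the most abundant receptor, did not pass the test, with 34.8 and 34.2 FPKM in WT ESCs and 37.6 and 36.0 FPKM in KO ESCs. Its log2 fold change was 0.09 (95% confidence interval -0.09 to 0.28, adjusted p = 0.470), and the interval ended below that of *Fzd2* (0.86 to 1.43). FPKM are per length of transcript, so levels can be set side by side between genes. *Fzd5* and *Fzd7* together held 76.3% and 76.3% of the summed Frizzled FPKM in WT ESCs and 77.5% and 77.0% in KO ESCs. Their features overlap annotated genes on the opposite strand, *Gm38058* for *Fzd5* and *Gm26813* for *Fzd7*. Reads of these cannot be told apart without the strand of the libraries. The share of *Fzd2* was 3.87% and 4.38% in WT ESCs and 8.28% and 8.26% in KO ESCs, and its mean moved from rank 5 of 10 to rank 3, past *Fzd10* and *Fzd6*. The libraries of *Fzd5*, *Fzd7* and *Fzd2* did not overlap, whereas *Fzd8* and *Fzd6* in KO ESCs and *Fzd2* and *Fzd6* in WT ESCs overlapped in their libraries.

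**Figure D3:**
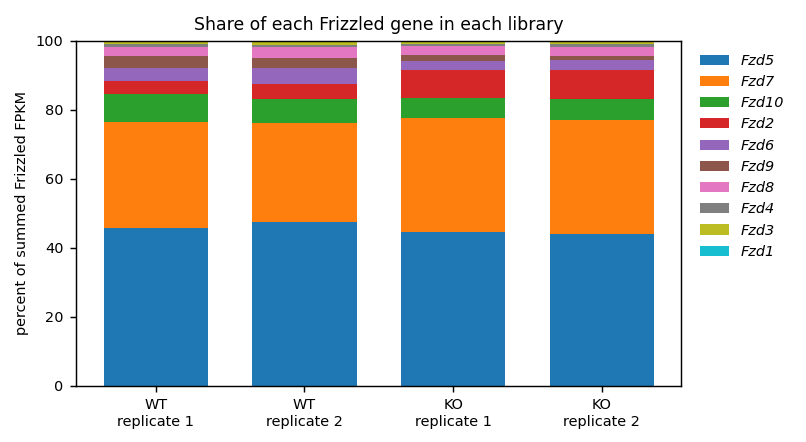
Share of each of 10 Frizzled genes in the summed Frizzled FPKM of each library, in percent, stacked to 100. *Fzd5* and *Fzd7* took 76.3% to 77.5% in every library, and the band of *Fzd2* was wider in both KO libraries, at 8.28% and 8.26%, than in the WT libraries, at 3.87% and 4.38%.

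The remaining receptors ranged in log2 fold change from -0.91 to 0.31. The lowest of these was *Fzd9*, named after its values were seen, with 2.67 and 2.05 FPKM in WT ESCs and 1.53 and 0.936 FPKM in KO ESCs. The libraries did not overlap, but they were spread within each genotype, and the log2 fold change of -0.91 ± 0.27 did not pass (adjusted p = 0.0883). *Fzd7* was the highest of these, at 0.31 ± 0.09 (adjusted p = 0.0778). The co-receptor genes gave log2 fold changes of 0.00 for *Lrp5* (95% confidence interval -0.39 to 0.40) and -0.19 for *Lrp6* (-0.41 to 0.04). *Fzd3* and *Fzd4* did not exceed 0.697 FPKM in any library, and *Fzd1* was under the minimum and not tested.

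Of the secreted inhibitors, *Sfrp1* was up-regulated. SFRP1 resembles the ligand-binding part of a Frizzled receptor and is known to hold Wnt proteins outside the cell. *Sfrp1*, on the plus strand of chromosome 8 from 23410965 to 23449632, measured 22.7 and 23.3 FPKM in WT ESCs and 38.0 and 40.0 FPKM in KO ESCs. The KO libraries were far above the WT libraries, with a log2 fold change of 0.76 ± 0.08 (adjusted p = 0.00576), and it stayed under 2-fold. Its 20 nearest tested features had a median of 0.14, and 6 of them were higher in KO ESCs at an adjusted p under 0.05, so its neighbours leaned the same way. *Dkk1*, for an inhibitor that binds LRP6, did not exceed 0.0873 FPKM and was not tested.

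None of the 9 intracellular genes passed the test in limma. *Ctnnb1*, for β-catenin, was the most abundant gene of the whole list, with 217 and 217 FPKM in WT ESCs and 258 and 258 FPKM in KO ESCs. The replicates were nearly equal and the genotypes apart, yet the log2 fold change was only 0.25 ± 0.07, with an adjusted p of 0.0710. That value fell to 0.0328 after quantile normalization, and part of the feature overlaps the gene *Ulk4*. *Dvl2*, named after its values were seen, measured 55.2 and 44.0 FPKM in WT ESCs and 72.0 and 61.9 FPKM in KO ESCs, and its log2 fold change of 0.44 ± 0.13 did not pass (adjusted p = 0.0924). The genes of the destruction complex gave log2 fold changes of 0.02 for *Axin1*, -0.18 for *Apc* and 0.01 for *Gsk3b*, with 95% confidence intervals of -0.27 to 0.31, -0.45 to 0.08 and -0.30 to 0.33. The remaining members, *Dvl1*, *Dvl3*, *Tcf7* and *Tcf7l2*, lay between -0.28 and 0.30.

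**Figure D4:**
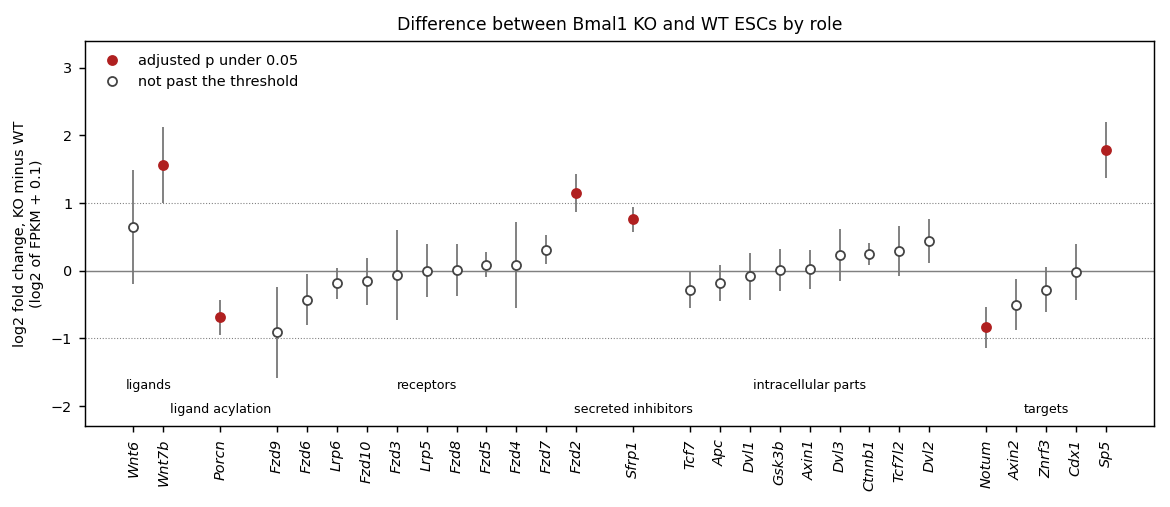
Log2 fold change (KO minus WT, of FPKM + 0.1) of the 29 tested genes by role, with 95% confidence intervals, filled where the adjusted p was under 0.05, and with dotted lines at a 2-fold change. The targets ran from -0.83 for *Notum* to 1.78 for *Sp5*, while the intracellular parts stayed between -0.28 and 0.44.

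The target genes did not move one way. Of 8 targets, 5 were tested. Of these, 1 was up-regulated (*Sp5*, 20% beside 6.85% of all features), 1 was down-regulated (*Notum*, 20% beside 5.6%) and 3 did not pass. The log2 fold change was negative in 4 of the 5 and positive in *Sp5* alone, with a median of -0.28. *Sp5* measured 1.31 and 1.03 FPKM in WT ESCs and 4.16 and 4.33 FPKM in KO ESCs. Both KO libraries were far above both WT libraries, with a log2 fold change of 1.78 ± 0.17 (adjusted p = 0.00522). Its neighbours did not share the rise, with a median log2 fold change of -0.07 over 20 features and 0 of them higher at an adjusted p under 0.05.

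*Notum* encodes a secreted enzyme that removes the acyl group from Wnt proteins. Its more abundant feature, on the minus strand of chromosome 11 from 120653789 to 120662092, measured 30.4 and 26.8 FPKM in WT ESCs and 17.6 and 14.5 FPKM in KO ESCs. The genotypes did not overlap, and the log2 fold change was -0.83 ± 0.12 (adjusted p = 0.0137). The other feature, listed at the same coordinates, measured 2.43 and 2.11 FPKM in WT ESCs and 1.34 and 1.45 FPKM in KO ESCs, with a log2 fold change of -0.66 ± 0.17 (adjusted p = 0.0610). An antisense gene, *Notumos*, overlaps *Notum*, and without the strand of the libraries its reads cannot be told apart from those of *Notum*. *Notum* and *Porcn*, which act on the same acyl group in opposite ways, were therefore both lower in KO ESCs.

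*Axin2*, the target most often used as a reporter of canonical signalling, is given here with its values although it did not pass. It measured 3.89 and 3.50 FPKM in WT ESCs and 2.84 and 2.35 FPKM in KO ESCs. The KO libraries were below the WT libraries, with a log2 fold change of -0.50 ± 0.15 and an adjusted p of 0.0938. The ratio of *Sp5* to *Axin2* was 0.335 and 0.295 in WT ESCs and 1.46 and 1.84 in KO ESCs. It follows from the values of the 2 genes already given and is no separate result. With 2 libraries against 2, an exact two-sided permutation test cannot go below p = 0.333, so the ratio is given as a description.

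*Lef1*, which is both a target and a partner of β-catenin, was under the minimum, with 0.736 and 0.540 FPKM in WT ESCs and 0.155 and 0.328 FPKM in KO ESCs. Without the minimum its log2 fold change was -1.15 with an adjusted p of 0.146. *Znrf3*, whose protein removes Frizzled receptors from the cell surface, was at 3.72 and 3.46 FPKM in WT ESCs and at 2.79 and 3.10 FPKM in KO ESCs, and it did not pass (log2 fold change -0.28, adjusted p = 0.228). *Cdx1* gave -0.02 (95% confidence interval -0.44 to 0.39). *Nkd1* and *Rnf43* did not exceed 0.437 FPKM and were not tested.

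The wider pathway was read from another 67 Wnt genes outside the list, of which 64 were in the files and 36 were tested. There 6 were higher in KO ESCs (16.7%, beside 6.85% of all features), 1 was lower (2.78%, beside 5.6%) and 29 did not pass. The median log2 fold change over the 36 was 0.07, and no ligand among them reached the minimum.

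*Wls*, for the carrier that brings acylated Wnt proteins to the cell surface, measured 0.330 and 0.251 FPKM in WT ESCs and 2.01 and 1.96 FPKM in KO ESCs. It rose from under the minimum, with a log2 fold change of 2.42 ± 0.24 (adjusted p = 0.00558), or 1.21 with a pseudocount of 1. In the path a ligand takes out of the cell, the acylation gene *Porcn* was thus lower and the carrier gene *Wls* higher. *Dact2*, for a binding partner of Dishevelled, rose from 5.88 and 5.41 FPKM to 15.7 and 13.6 FPKM (log2 fold change 1.36 ± 0.11, adjusted p = 0.00403). *Sfrp2*, a relative of *Sfrp1*, rose from 1.52 and 1.22 FPKM to 2.70 and 2.69 FPKM (log2 fold change 0.93 ± 0.17, adjusted p = 0.0258). *Sfrp1* and *Sfrp2* were therefore both higher in KO ESCs, whereas *Sfrp4* (0.37, adjusted p = 0.116) and *Sfrp5* (0.57, adjusted p = 0.340) did not pass.

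*Tcf7l1*, the TCF gene known mainly as a repressor in ESCs, measured 19.6 and 17.8 FPKM in WT ESCs and 29.8 and 26.0 FPKM in KO ESCs (log2 fold change 0.57 ± 0.10, adjusted p = 0.0237). Its 20 nearest tested features on chromosome 6 had a median log2 fold change of 0.89, and 17 of them were higher in KO ESCs at an adjusted p under 0.05. The rise of *Tcf7l1* was therefore within that of its neighbourhood, which was not seen around *Sp5*, *Wnt7b*, *Fzd2*, *Notum* or *Porcn*, where the medians lay between -0.11 and 0.01. *Dixdc1* (log2 fold change 0.59, adjusted p = 0.0281) and *Pygo2* (0.42, adjusted p = 0.0446, in a feature shared with *Shc1*) also rose. Without the minimum of expression, *Sfrp2*, *Tcf7l1*, *Dixdc1* and *Pygo2* no longer passed, and *Wls* and *Dact2* still did.

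*Ccnd1*, for cyclin D1, was the only one of the 36 that was lower at an adjusted p under 0.05, with 56.4 and 55.9 FPKM in WT ESCs and 31.1 and 31.7 FPKM in KO ESCs (log2 fold change -0.84 ± 0.07, adjusted p = 0.00410). The other tested targets outside the list, *Myc* and *Tbx3*, gave log2 fold changes of -0.21 and -0.22 and did not pass (adjusted p = 0.159 and 0.157). *Cdx2*, *Cdx4*, *Sp8* and *T* did not exceed 0.245 FPKM.

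**Figure D5:**
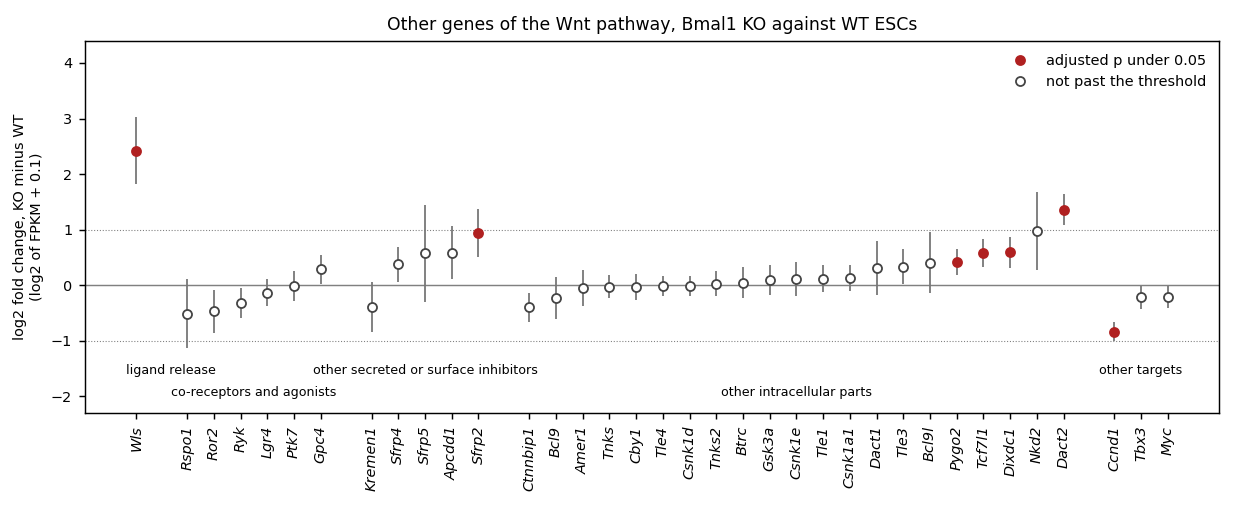
Log2 fold change (KO minus WT, of FPKM + 0.1) of the 36 tested Wnt pathway genes outside the list by role, with 95% confidence intervals, filled where the adjusted p was under 0.05. *Wls* stood highest at 2.42, and *Ccnd1* was the only gene lower at an adjusted p under 0.05, at -0.84.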

How the data were processed

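The 2 WT and 2 *Bmal1* KO libraries were grouped by their labels. Per the submitters' processing notes, reads of ribosome-depleted RNA were processed with TopHat2 2.1.1, Bowtie2 2.3.0 and Cufflinks 2.2.1 on GRCm38 (mm10), and the authors deposited FPKM per feature. FPKM hold no read numbers, so depth is unknown and precision rests on the replicates. Starts in the files count from 0, so 1 was added. Features whose mean FPKM reached 0.5, 12990 in number, were tested as log2(FPKM + 0.1) in limma 3.58.1 (R 4.3.3; trended variance, two-sided, Benjamini-Hochberg over all features; threshold 0.05, with 2-fold as the added limit). The procedure was also run on simulated data, in which the planted changes were larger than most of those given here. Tables and plots used Python 3.11.15, numpy 2.4.6, pandas 2.3.3 and matplotlib 3.10.9.

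A gene with 2 features was counted by the higher one. Genes past the threshold and the highest gene of each role were named with full values, and other genes by range and count; *Axin2*, *Lef1*, *Fzd7*, *Fzd9*, *Dvl2*, *Znrf3* and other genes named besides were chosen after their values were seen. The members and lists were chosen with earlier results of these data known. RefSeq promoter windows matched 27 of 44 genes. The windows of *Apc*, *Axin1*, *Cdx1*, *Fzd2*, *Fzd3*, *Fzd6*, *Fzd8*, *Lrp5*, *Lrp6*, *Notum*, *Porcn*, *Sfrp1*, *Wnt10a*, *Wnt5a*, *Wnt7b*, *Wnt8a* and *Znrf3* were not used here, and *Wnt2*, *Wnt10b* and *Dkk2* were not analysed here. Neighbours were the 10 nearest tested features on each side.

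Alternatives were other pseudocounts, filters, scalings, a replicate block, no variance trend and each library left out.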

Additional observations from a re-analysis of the deposited data

How the results depend on the processing

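The 6 Wnt genes that passed the test (*Sp5*, *Wnt7b*, *Fzd2*, *Sfrp1*, *Notum* and *Porcn*) kept an adjusted p under 0.05 and their direction under every alternative in which they were tested, and *Wnt7b* could not be tested at a minimum of 1 FPKM. Of 428 values of single genes under the alternatives, 391 kept their direction and their side of the threshold, 11 lost the threshold, 11 gained it and 15 changed sign. Those that changed sign belonged to genes with a log2 fold change near 0 that passed under no alternative. *Fzd8* was at -0.0542 with quantile normalization. Leaving out each library in turn gave log2 fold changes of -0.16 to 0.028 for *Fzd3*, -0.0583 to 0.0787 for *Fzd8*, -0.32 to 0.0033 for *Fzd10*, -0.18 to 0.19 for *Lrp5*, -0.23 to 0.066 for *Dvl1*, -0.0937 to 0.14 for *Axin1*, -0.15 to 0.17 for *Gsk3b* and -0.15 to 0.11 for *Cdx1*. With a pseudocount of 1, 1 gene of the list was more than 2-fold higher in place of 3. Leaving out each library in turn gave 0 to 1 genes of the list that were more than 2-fold lower, the single gene being *Fzd9* without WT replicate 2 or without KO replicate 1, and 1 to 2 other pathway genes that were lower. With no minimum, 2 of the other pathway genes were higher in place of 6, since *Sfrp2*, *Dixdc1*, *Tcf7l1* and *Pygo2* lost the threshold over more features. *Tcf7l1* and *Pygo2* also lost it with no variance trend, *Dixdc1* without WT replicate 1, KO replicate 1 or KO replicate 2, and *Pygo2* without WT replicate 2 or KO replicate 1. The replicate numbers are shared by the genotypes but nothing ties them to a common culture, and the differences between replicates 1 and 2 correlated across 12990 features with a Pearson r of 0.07 and a Spearman rho of 0.39. With a replicate block, 7 genes of the list were higher and 5 lower, with *Fzd7*, *Dvl2*, *Ctnnb1*, *Fzd9*, *Tcf7* and *Axin2* added, and 9 other pathway genes were higher and 6 lower. The block also raised the calls over all 12990 features, to 13.9% higher and 17.3% lower. Low values limit the ligands most: 10 of 12 could not be tested.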
